A study of Rattus norvegicus with 7 samples.

Results

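A cluster of 45 type 1 vomeronasal receptor (V1R) gene models on rat chromosome 1 is described here, from 71070539 to 73699919 on RGSC3.4, a span of 2629 kb. They are the models whose start lies between 71000000 and 74000000 among the 224 V1R models that the authors placed ahead of the genome-ordered rest of a 29630-model annotation. Of the 45 models, 22 are intact and 23 are pseudogenes, that is, receptor copies without an intact coding sequence. A model counts as a pseudogene when its name says so (22 models) or when it stands among the named pseudogenes of that block (ENSRNOG00000032125). The other 21 models with an Ensembl identifier carry no receptor name in the files, so that their class comes from their place in the annotation. NG_Vom1r55 is the only intact model that the authors named, and RefSeq (GRCr8) lists a protein-coding gene under the symbol Vom1r55. The remaining 44 models matched no RefSeq entry by name or identifier.

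The animals were 7 males of the inbred rat strain LEW/Crl, 8 weeks old, each giving 1 RNA library of the sensory epithelium of the vomeronasal organ. None of the labels gives a treatment or a genotype beyond the strain, and blood was removed from all rats with a heparin solution, so that the study has a single group. Libraries were made from polyA-selected RNA and sequenced as stranded single-end reads. They held 64085829 to 74924005 counts each, and no 2 of them agreed within sampling noise (chi-square per degree of freedom from 11.4 to 106 in 21 pairs). The files do not pair Ensembl identifiers with gene symbols, and markers of the tissue were therefore not analysed here.

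V1Rs are G protein-coupled receptors of sensory neurons in the vomeronasal organ, which detects chemical signals from other animals. Their coding sequence lies in a single exon, and the genes stand in clusters that grew by duplication, with many decayed copies between the intact ones. Within the V1R-expressing class of vomeronasal sensory neurons, a mature neuron typically expresses a single V1R gene, chosen from a single allele. The level of a receptor in whole tissue thus depends both on the number of neurons that chose it and on the RNA in each. In these bulk samples fewer cells of a type and less RNA per cell cannot be told apart.

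The cluster falls into 2 groups separated by 890 kb without a V1R model, a stretch that holds 24 other gene models. The proximal group has 15 intact models and 20 pseudogenes and ends at 72449735. The distal group starts at 73339982 and has 7 intact models and 3 pseudogenes. All 22 intact models have 1 exon and a length divisible by 3, from 897 to 1005 bases, which is coding length without UTRs. Pseudogenes run from 141 to 1145 bases, 20 of 23 in 1 exon and 11 of 23 with a length divisible by 3. Both strands are used: 15 intact models and 13 pseudogenes lie on the plus strand, 7 and 10 on the minus strand. The last V1R model before the cluster is the pseudogene NG_Vom1rn-ps42 (70244323 to 70245207), 825 kb away and without a count, and no other V1R model follows until NG_Vom1rn-ps67 at 132849046.

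Reads were counted on every intact gene of the cluster, whereas most pseudogenes had few or none. Detection required 10 counts or more in 4 or more of the 7 rats. All 22 intact models met this, beside 93.6% of all 109 intact V1R models, 92.0% of the 87 elsewhere and 56.3% of all models of the annotation. Of the 23 pseudogenes, 5 were detected, beside 13.9% of all 115 V1R pseudogenes and 12.0% of the 92 elsewhere. The weakest intact model, ENSRNOG00000027709, still had between 22 and 49 counts in a rat. None of the 18 undetected pseudogenes reached 10 counts in any rat, the highest being 7 counts for NG_Vom1rn-ps45 in rat 7. Between them lay the weakest detected pseudogene, NG_Vom1rn-ps49, at 11.5 counts in its lowest rat, close to the minimum of 10. The plot of level by position shows the intact models apart from the undetected pseudogenes.

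**Figure D1:**
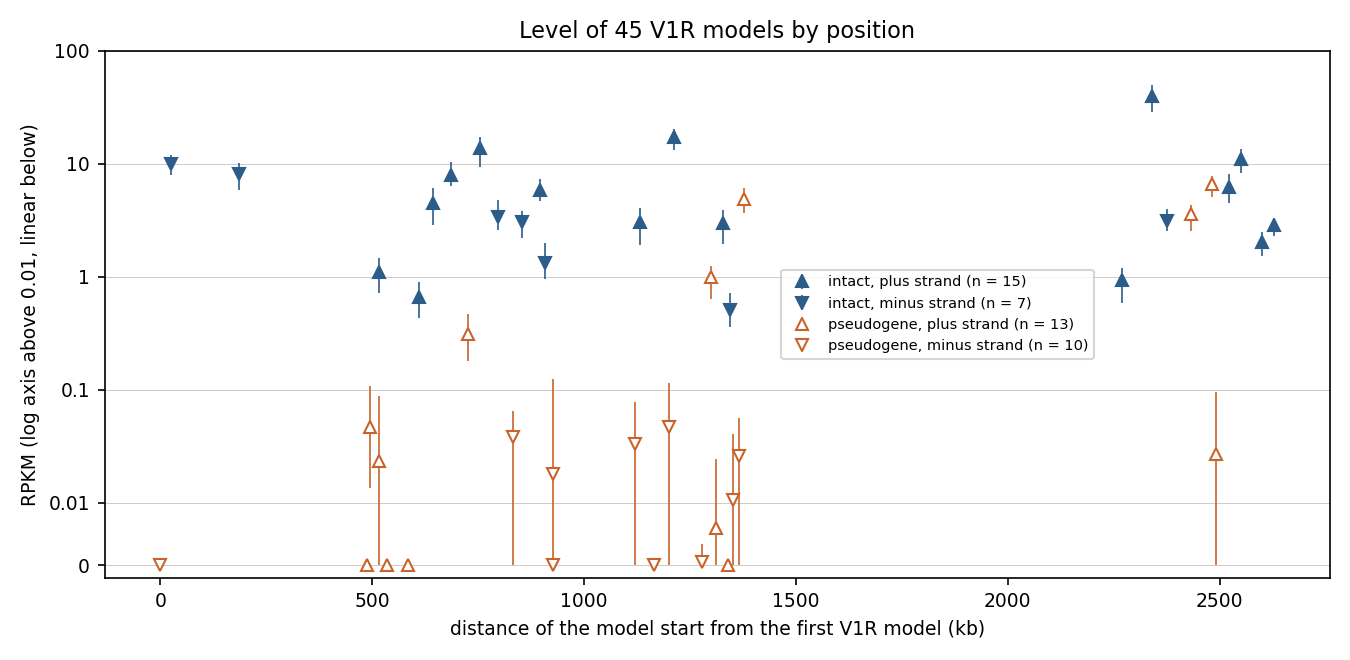
Mean RPKM of the 45 V1R models (y axis, logarithmic above 0.01 and linear below) against the distance of the model's start from that of the first model in kb (x axis). Triangles point up for the plus and down for the minus strand, filled for intact models and open for pseudogenes, and bars run from the lowest to the highest of 7 rats. All 22 intact models lie above 0.5 RPKM, and 18 of 23 pseudogenes lie below 0.05 RPKM.

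Levels of different models were compared as RPKM, which is CPM (a model's counts scaled to a common library total) per kilobase of model. ENSRNOG00000033061, on the plus strand of the distal group (73409743 to 73410699), had 28.9 RPKM in the lowest rat, a median of 40.2 and 49.7 in the highest, with a mean of 39.5 ± 6.90 (SD, n = 7). This receptor gene alone made up 26.5% of the summed CPM of the 22 intact models and ranked first among all 109 intact V1R models. In second place stood ENSRNOG00000027749 of the proximal group (72283463 to 72284416), with 13.1, 18.0 and 20.2 RPKM as lowest, median and highest values. Even the lowest rat of ENSRNOG00000033061 lay above the highest rat of ENSRNOG00000027749.

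Another 8 genes made up the upper part of the range. ENSRNOG00000032817 had 13.8 ± 2.73 RPKM, ENSRNOG00000033788 10.9 ± 1.89 and ENSRNOG00000029554 9.89 ± 1.39 (SD, n = 7). The next 3 were ENSRNOG00000029852 at 8.09 ± 1.54 RPKM, ENSRNOG00000028882 at 7.91 ± 1.40 and ENSRNOG00000030886 at 6.20 ± 1.23 (SD, n = 7). ENSRNOG00000029524 followed at 5.85 ± 0.816 RPKM and ENSRNOG00000033483 at 4.47 ± 1.07 (SD, n = 7). These 10 genes held 83.6% of the summed CPM of the intact models, and the 4 most abundant held 54.5%. They came from both groups and both strands, 7 from the proximal group on either strand and 3 from the distal group on the plus strand.

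At the lower end, ENSRNOG00000027709 (72414197 to 72415120, minus strand) had 0.359 RPKM in the lowest rat, a median of 0.535 and 0.710 in the highest. Above it stood ENSRNOG00000032226 at 0.666 ± 0.178 RPKM and NG_Vom1r55 (73339982 to 73340878) at 0.930 ± 0.214. ENSRNOG00000028877 had 1.09 ± 0.290 RPKM and ENSRNOG00000031734 had 1.32 ± 0.358 (SD, n = 7). The remaining 7 intact models lay between 2.03 and 3.39 RPKM. From the lowest to the highest intact model the mean RPKM spanned 77.8-fold. The median of the 22 means was 3.26 RPKM, beside 3.13 for the 87 intact V1R models elsewhere, whose highest reached 22.8.

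**Figure D2:**
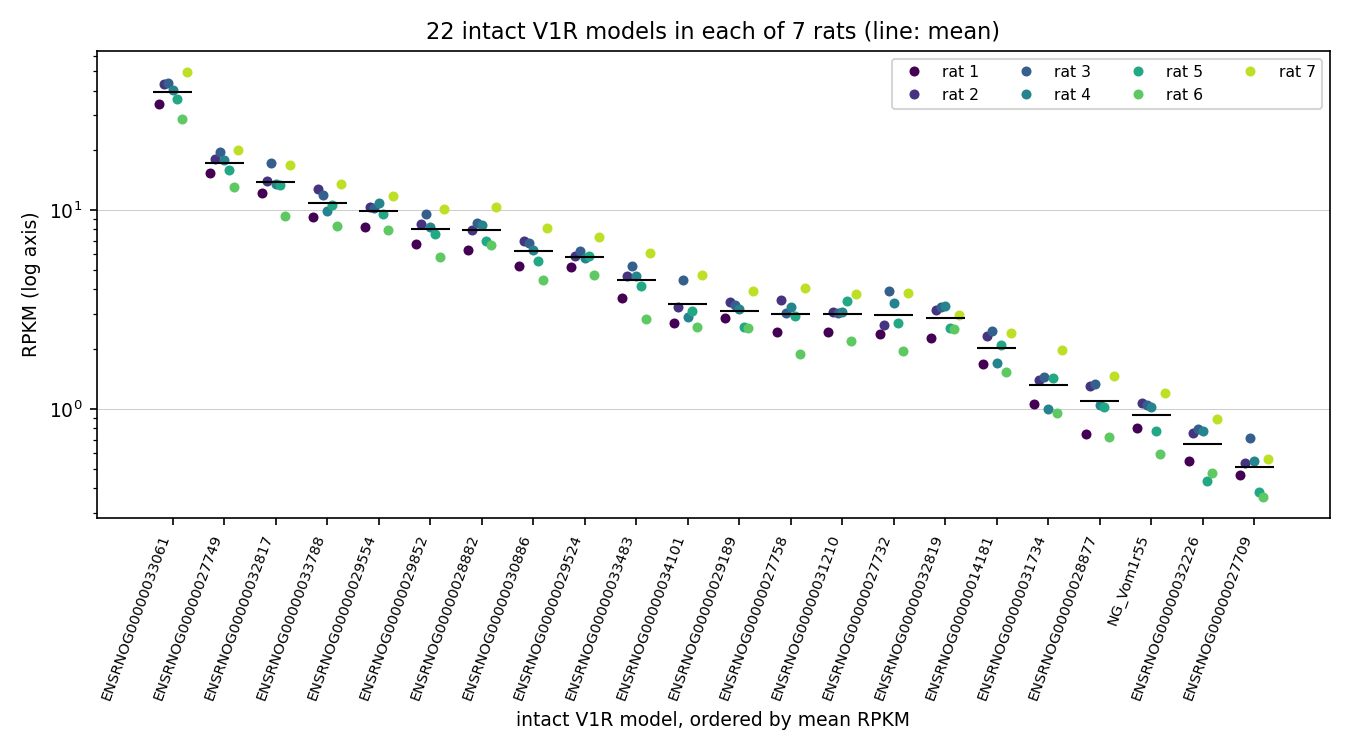
RPKM (y axis, logarithmic) of each of the 22 intact models in 7 rats, ordered by mean RPKM (x axis), with a dot per rat and a line at the mean. Means run from 0.508 to 39.5 RPKM, and rats 6 and 7 hold the lowest and highest dots of most models.

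The order of the genes was much the same in each animal. Spearman's rho of RPKM across the 22 genes lay between 0.958 and 0.991 for the 21 pairs of rats (across genes, which are not independent replicates). Of the 21 steps between neighbours in the order of means, 11 were kept in all 7 rats. Among the 10 others were all 5 steps from ENSRNOG00000034101 at 3.39 RPKM down through ENSRNOG00000029189, ENSRNOG00000027758, ENSRNOG00000031210 and ENSRNOG00000027732 to ENSRNOG00000032819 at 2.86. Next to each other in the order, these 6 genes did not keep their places in every rat. Genes further apart in the order were not counted here. Higher up, ENSRNOG00000029852 exceeded ENSRNOG00000028882 in only 4 of 7 rats, and ENSRNOG00000030886 exceeded ENSRNOG00000029524 in 5.

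Intact genes that follow each other along the chromosome mostly had different RPKM values. Each intact model was compared with the next intact model along the chromosome, within rats, as a difference in log2(RPKM + 0.1). The next model was taken at any distance, from 10.9 to 925 kb in the cluster (median 56.1). The longest distance crosses the stretch between the 2 groups. Elsewhere the distances ran from 10.5 to 27395 kb (median 62.8). On this scale the differences of weakly expressed genes come out too small. RPKM here divides by a model length without UTRs, and the part of this in the differences was not tested. The test was an exact two-sided sign-flip permutation test over the 7 rats, adjusted by Benjamini-Hochberg over the 104 pairs of the whole V1R set. In the cluster 20 of 21 pairs passed at an adjusted threshold of 0.05, beside 94.2% of the 104 pairs. A call is thus the rule for consecutive intact V1R models in general, near or far. Each of the 20 had the same direction in 7 of 7 rats, with an exact p of 0.0156, the smallest that 7 rats allow, and an adjusted value of 0.0169. Differences exceeded 1 on the log2 scale in 11 of 21 pairs, and the median absolute difference was 1.14, beside 1.58 for the 83 pairs elsewhere.

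The sharpest contrast was at the start of the distal group. NG_Vom1r55 was lower than ENSRNOG00000033061, 68.9 kb away on the same strand, by a log2 difference of -5.27 ± 0.09 (SD, n = 7). On the far side of that gene, ENSRNOG00000029189 stands 35.3 kb away on the opposite strand, and ENSRNOG00000033061 exceeded it by 3.61 ± 0.10. The most abundant receptor gene of the cluster is thus flanked by a pair of genes with 0.930 and 3.13 RPKM. A similar arrangement was seen at ENSRNOG00000027749, which exceeded ENSRNOG00000027732, the next gene, by 2.51 ± 0.17, while the gene before it, ENSRNOG00000027758, was lower by -2.49 ± 0.17 (SD, n = 7).

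The earlier gene was higher in 9 of the 20 called pairs and lower in 11, so that levels went up and down along the chromosome without a common direction (over the whole V1R set 45.2% of pairs were called higher and 49.0% lower). Besides the 2 pairs named, the earlier gene was higher in 7. ENSRNOG00000029554 exceeded ENSRNOG00000029852 by 0.30 ± 0.12 on the log2 scale, the smallest called difference, and ENSRNOG00000029852 exceeded ENSRNOG00000028877 by 2.80 ± 0.13. ENSRNOG00000028877 exceeded ENSRNOG00000032226 by 0.63 ± 0.24, and ENSRNOG00000032817 exceeded ENSRNOG00000034101 by 2.01 ± 0.16. Small and large steps thus lay side by side, as on the 2 sides of ENSRNOG00000029852. The closest neighbours in the cluster, 10.9 kb apart on opposite strands, was ENSRNOG00000029524 above ENSRNOG00000031734 by 2.09 ± 0.19. ENSRNOG00000027732 exceeded ENSRNOG00000027709 by 2.33 ± 0.20, and ENSRNOG00000033788 exceeded ENSRNOG00000014181 by 2.37 ± 0.09 (SD, n = 7 each). Only ENSRNOG00000034101 and ENSRNOG00000031210 gave no call, with a difference of 0.15 ± 0.24, higher in 5 of 7 rats (exact permutation p = 0.172, adjusted 0.175).

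Among the pseudogenes, 5 models carried nearly all the reads. Together they took 98.8% ± 0.359 of the pseudogene counts of the cluster (SD, n = 7). ENSRNOG00000032125 (73551908 to 73552740) had 5.07 RPKM in the lowest rat, a median of 6.45 and 7.84 in the highest. NG_Vom1rn-ps63 (72448782 to 72449735) had 3.65, 4.87 and 6.05 RPKM, and NG_Vom1rn-ps64 (73502065 to 73502840) had 2.56, 3.54 and 4.29. The ranges of ENSRNOG00000032125 and NG_Vom1rn-ps64 did not overlap, while that of NG_Vom1rn-ps63 overlapped both. NG_Vom1rn-ps58 (72371253 to 72372205) followed with 0.633, 1.07 and 1.25 RPKM. The weakest was NG_Vom1rn-ps49 (71797332 to 71798289) with 0.178, 0.334 and 0.467 RPKM, from 11.5 to 31.5 counts in a rat. The mean levels of 4 of them lay within the range of the intact genes, and that of NG_Vom1rn-ps49 lay below it.

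These 5 detected pseudogenes had some features in common. All lay on the plus strand, where they were 5 of 13 pseudogenes, against 0 of 10 on the minus strand. Elsewhere 6 of 54 plus-strand and 5 of 38 minus-strand V1R pseudogenes were detected. In length they ran from 776 to 958 bases in 1 exon. They were among the 15 pseudogenes of the cluster with 600 bases or more, and the other 10 of these were undetected. No shorter pseudogene of the cluster was detected. Over all 115 V1R pseudogenes, 16 were detected, and the shortest of these had 551 bases. The part of length in detection was not tested. In the distal group 2 of 3 pseudogenes were detected and in the proximal group 3 of 20. The longest pseudogenes, NG_Vom1rn-ps47 and NG_Vom1rn-ps48, had no count. Of the 1145 bases of NG_Vom1rn-ps47, however, 1121 also belong to exons of ENSRNOG00000031178 on the same strand. The file headers show no option to count a read on overlapping genes, so that reads of this pseudogene would have been left unassigned.

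No count in any rat was seen for 7 pseudogenes, NG_Vom1rn-ps43, NG_Vom1rn-ps44, NG_Vom1rn-ps47, NG_Vom1rn-ps48, NG_Vom1rn-ps53, NG_Vom1rn-ps55 and NG_Vom1rn-ps60. Over the 7 libraries a count of 0 allows up to 3 counts, or 0.00622 CPM, for counting error only. For NG_Vom1rn-ps47 it sets no limit, because of the shared exons. The other 11 undetected pseudogenes had between 0.25 and 22 counts in all rats together, and their mean levels stayed at or below 0.0466 RPKM. NG_Vom1rn-ps59 and NG_Vom1rn-ps61, 2.5 and 4.5 counts in all, had equal counts in 6 of 7 rats, of which rats 1 and 2 had counts above 0 (0.5 and 1.5).

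Each pseudogene was then set against the nearest intact model, chosen by position only, with the same test, adjusted over the 103 such pairs of the whole V1R set. Outside the cluster the distances ran up to 113031 kb, with a median of 49.5 kb. In the cluster the pseudogene was called lower in 20 of 23 pairs, at distances from 0.617 to 47.0 kb, beside 95.1% of all 103 pairs (99.0% were called in either direction). For 18 of these 20 the pseudogene was undetected and the pair entered through the intact model, so that the direction was fixed by the choice of pairs and the call restates the missing detection. The other 2 compare detected pseudogenes, both lower in 7 of 7 rats (exact permutation p = 0.0156, adjusted 0.0159). NG_Vom1rn-ps49 lay below ENSRNOG00000032817, 26.8 kb away, by a log2 difference of -5.11 ± 0.34. NG_Vom1rn-ps58 lay below ENSRNOG00000027732, 25.3 kb away, by -1.48 ± 0.19 (SD, n = 7). The distance itself set no minimum level: NG_Vom1rn-ps46 lies 0.617 kb from ENSRNOG00000028877 on the same strand and had 2 counts in all, beside 488 for that gene.

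The pseudogene was called higher in 2 of 23 pairs, beside 3.88% over the whole V1R set. NG_Vom1rn-ps63 exceeded ENSRNOG00000027709, the weakest intact gene of the cluster, 33.7 kb away on the opposite strand. Their mean levels were 4.82 ± 0.896 and 0.508 ± 0.120 RPKM, and the log2 difference was 3.02 ± 0.22, higher in 7 of 7 rats (exact permutation p = 0.0156, adjusted 0.0159). The ranges of the 7 rats did not overlap. Against ENSRNOG00000027732, the nearest intact gene on the same strand, the log2 difference of NG_Vom1rn-ps63 was 0.69 ± 0.18 (SD, n = 7). NG_Vom1rn-ps64 exceeded ENSRNOG00000029189, 55.1 kb away, by only 0.17 ± 0.15, higher in 6 of 7 rats (exact permutation p = 0.0469, adjusted 0.0473). This call was lost when rat 2, 3, 4, 5, 6 or 7 was left out (adjusted p from 0.0631 to 0.0947) and the sign turned on CPM, without division by length (-0.11).

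ENSRNOG00000032125, the most abundant pseudogene, and ENSRNOG00000030886, the nearest intact gene at 40.4 kb on the same strand, could not be separated. They had 6.62 ± 1.00 and 6.20 ± 1.23 RPKM, a log2 difference of 0.10 ± 0.12, higher in 5 of 7 rats (exact permutation p = 0.109, adjusted 0.109). On CPM the difference was -0.08.

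**Figure D3:**
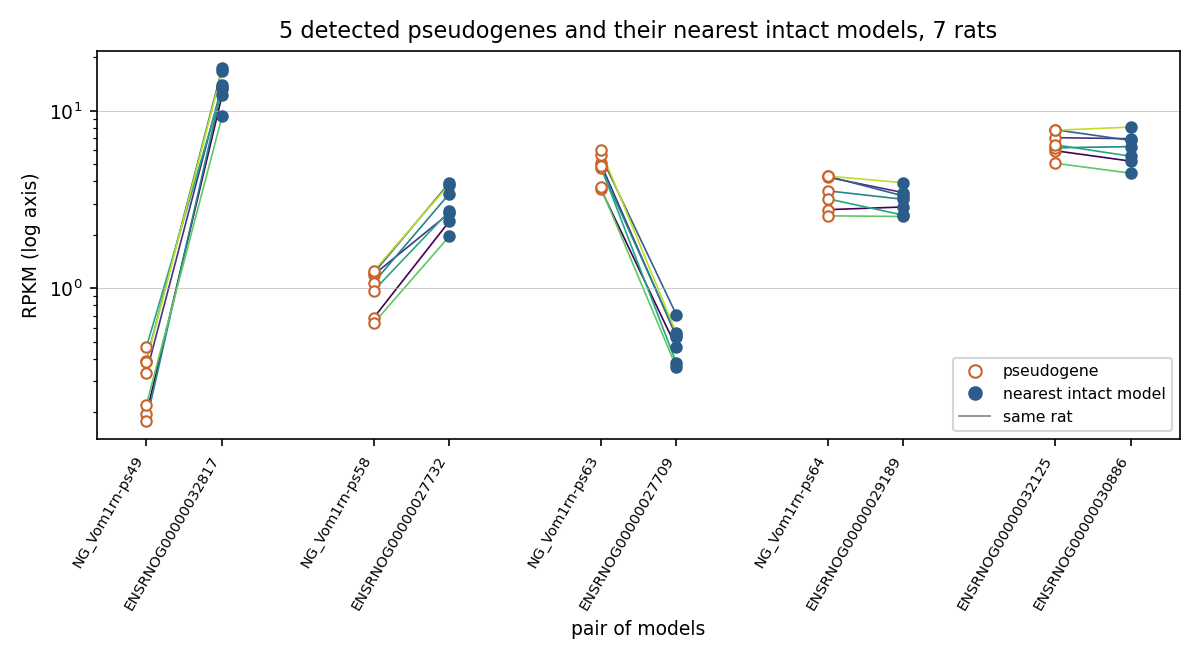
RPKM (y axis, logarithmic) of the 5 detected pseudogenes (open dots) and of the nearest intact model of each (filled dots) in 7 rats, with lines joining values of the same rat. NG_Vom1rn-ps49 and NG_Vom1rn-ps58 lie below their neighbours and NG_Vom1rn-ps63 lies above, while NG_Vom1rn-ps64 and ENSRNOG00000032125 overlap with theirs.

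How far these pseudogene levels are their own cannot be read from the files, because reads with more than 1 mapping position were split between those positions. Counts that are not whole numbers show where this happened. All 5 detected pseudogenes had such counts, in 2 rats for NG_Vom1rn-ps49, 3 for NG_Vom1rn-ps58, 6 for NG_Vom1rn-ps63 and NG_Vom1rn-ps64 and 7 for ENSRNOG00000032125. The same holds for 13 of the 22 intact models, among them ENSRNOG00000033061 and ENSRNOG00000033788 in 7 of 7 rats. The fractions of 9 intact models and 6 pseudogenes took parts finer than 1 in 2, which takes reads with at least 3 mapping positions. No pair of models in the cluster had equal counts above 0 in every rat.

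Only 9 intact models had whole counts throughout, namely ENSRNOG00000028877, ENSRNOG00000032226, ENSRNOG00000033483, ENSRNOG00000028882, ENSRNOG00000034101, NG_Vom1r55, ENSRNOG00000029189, ENSRNOG00000014181 and ENSRNOG00000032819. They spanned 0.666 to 7.91 RPKM with a median of 2.86, and the 13 others 0.508 to 39.5 with a median of 6.20. A whole count can still be a sum of fractions. With models of whole counts in every rat only, 9 of 9 intact models and 0 of 14 pseudogenes were detected. The 0 of 14 was fixed by this choice, which leaves out all 5 detected pseudogenes. Models with few or no reads pass it easily, and 7 of these 14 had no count at all.

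The cluster rose and fell with the rest of the V1R genes from rat to rat. Summed over the 22 intact models, the level was 142 ± 24.4 CPM (SD, n = 7), with rat 6 at the bottom (106 CPM) and rat 7 at the top (178 CPM). For the 87 intact V1R models elsewhere rat 6 was also lowest, at 278 CPM, and rat 7 highest, at 461. The cluster's share of all intact V1R counts therefore stayed within 27.0% and 27.9% in the 7 rats, at 27.5% ± 0.296 (SD, n = 7), for 20.2% of the intact models. This share depends on ENSRNOG00000033061, without which it was 21.8% ± 0.309. Over models with whole counts only, which leaves that gene out as well, the share was 18.5% ± 0.604 (SD, n = 7). That set holds 9 intact models of the cluster among 39 intact V1R models. Neither share is over the 109 models behind the 20.2%. Unlike the shares, the CPM values depend on the library totals. The median RPKM of the intact models had an SD over rats of 0.669 on library totals. It was 0.516 on library sizes scaled by edgeR's TMM factors. The part of the library scale in the shared rise and fall was not tested.

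The pseudogenes of the cluster followed the same pattern, at 10.7 CPM in rat 6, 17.4 CPM in rat 7 and 14.3 ± 2.56 CPM on average (SD, n = 7). They took 9.12% ± 0.364 of the counts of the cluster. Of the counts of all 115 V1R pseudogenes, these 23 took 55.4% ± 2.41, between 52.2% and 58.9% in single rats. The next highest share was that of the 11 pseudogenes on chromosome 4 below 100 Mb, at 18.9% on average. ENSRNOG00000032125, a pseudogene only by its place in the annotation, had on average 382 of the 991 counts of these 23 in a rat. All 5 detected pseudogenes of the cluster had counts that were not whole. Of the 11 detected elsewhere, 6 had whole counts in every rat. The part of split reads in the share of 55.4% was not tested.

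**Figure D4:**
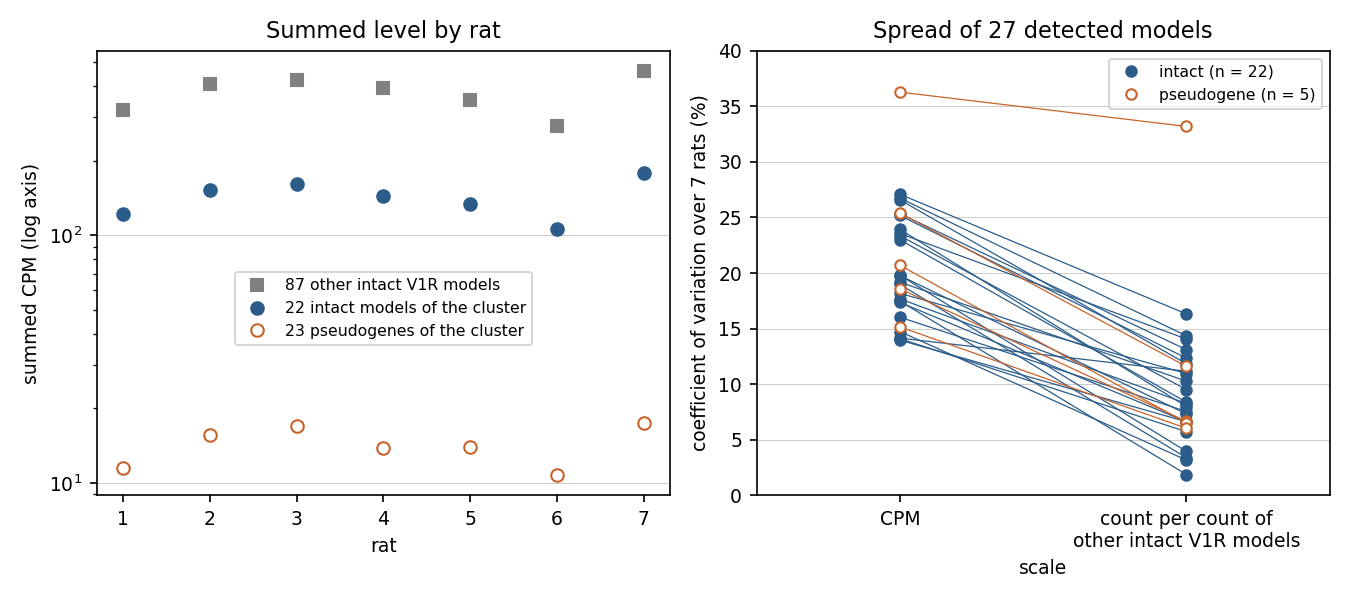
Left, summed CPM (y axis, logarithmic) in each rat (x axis) for the 22 intact models and the 23 pseudogenes of the cluster and for the 87 other intact V1R models. Right, coefficient of variation over 7 rats (y axis, percent) of the 27 detected models on CPM and after division by the counts of the other intact V1R models, where all lines go down and the median of intact models goes from 19.5% to 8.32%.

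Relative to the other V1R genes, the spread between rats differed from model to model, and so did the counts behind it. On CPM the coefficient of variation of the 22 intact models had a median of 19.5%, and after division by the rat's summed counts of intact V1R models outside the cluster a median of 8.32%. ENSRNOG00000033061 went from 17.5% to 1.87% and ENSRNOG00000027749 from 14.7% to 3.17%, the smallest remaining spreads. ENSRNOG00000031734 went from 27.1% to 16.3%, the largest remaining spread of an intact model, at 62 to 125 counts per rat. Of the 4 intact models with fewer than 100 counts in every rat, ENSRNOG00000028877, ENSRNOG00000032226, ENSRNOG00000027709 and NG_Vom1r55, the remaining spread was 8.38% to 14.4%. Counting error is larger where counts are fewer, and its part in the spread was not tested for any model. NG_Vom1rn-ps49, the detected pseudogene with the fewest counts, kept 33.2% of 36.3%, whereas NG_Vom1rn-ps58, NG_Vom1rn-ps63, NG_Vom1rn-ps64 and ENSRNOG00000032125 came down to 6.03% to 11.6%.

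The biological coefficient of variation, from edgeR's tagwise dispersion fitted over 16670 detected models, had a median of 15.9% for the 22 intact models and 17.8% for the 5 detected pseudogenes. The median was 16.6% for the 80 detected intact V1R models elsewhere and 10.5% for all 16670 models, which were not matched for level. Single intact models ran from 11.4% for ENSRNOG00000029524 to 22.1% for ENSRNOG00000032226. No contrast between groups exists in this design, so that these values carry no test.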

How the data were processed

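The members and the comparisons were chosen with earlier results of these data known. The submitters' processing notes name STAR 2.7.1a as aligner and featureCounts 1.6.5 as counter, but version 1.6.3 stands in the file headers. What the authors deposited, per the file headers, is an estimated count for each model of Ensembl release 67 (RGSC3.4, extended by the authors). It takes exonic reads of the matching strand (setting 2) with 1 base of overlap or more and any mapping quality, splits reads with several mapping positions into fractions, and is not scaled.

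CPM and RPKM were computed here from each library's total and the deposited model length. Pairs of models entered the test when at least one was detected. All 128 sign flips were enumerated, with adjustment over all V1R pairs at a threshold of 0.05, and the test was checked on simulated data. A count of 0 allows 3 counts, or 0.0400 to 0.0468 CPM in a single rat, for counting error only. Each rat is 1 replicate of the single group. Dispersions came from edgeR 4.0.16 (intercept only, TMM, rounded counts), and size factors of DESeq2 1.42.0 served as an alternative. Named genes are the 10 highest and 5 lowest intact models by RPKM, detected pseudogenes, intact models named by the authors, pairs against the majority direction and models at the position limits. Others were named after their values were seen.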

Additional observations from a re-analysis of the deposited data

How the results depend on the processing

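All 22 intact models and 4 or 5 pseudogenes of the cluster stayed detected with a minimum of 3 or 30 counts, and 22 and 5 without each rat in turn. With whole counts only, 9 of 9 intact models and 0 of 14 pseudogenes were detected, a choice that leaves out all 5 detected pseudogenes. The median RPKM of the intact models per rat, 3.44, was 6.29 with the library total without the 10 most abundant models, which is a smaller total, and 3.28 to 3.58 without each rat. Of 200 alternative levels of single models, 20 moved by more than 1 SD, all with that total. Pseudogenes called lower than the nearest intact model numbered 20 to 21 in all alternatives but whole counts only (5 of 5 pairs, all with an undetected pseudogene, none called higher). Those called higher went from 2 to 1 on CPM and with the nearest intact model on the same strand, and were 1 to 2 without each rat. NG_Vom1rn-ps64 turned to -0.11 on CPM (exact permutation p = 0.125, adjusted 0.126) and to -0.79 against ENSRNOG00000030886 on the same strand (exact permutation p = 0.0156, adjusted 0.0158), and ENSRNOG00000032125 against ENSRNOG00000030886 to -0.080 on CPM (exact permutation p = 0.250, adjusted 0.250). Of 281 alternative values of single pseudogene pairs, 6 lost the call, 3 turned and 272 gave the same call and sign. The same call and sign were found in all 235 of single intact pairs. The 20 called neighbours were 4 of 4 pairs with whole counts only. The share of intact V1R counts moved from 27.5% to 26.9% on RPKM sums and 21.8% without ENSRNOG00000033061. With whole counts only (9 of 39 intact models) it was 18.5%, and without each rat 27.4% to 27.5%. Median biological variation of intact models was 13.4% to 17.1%, and of the detected pseudogenes 15.1% to 19.1%, without each rat, lowest without rat 6. At 22 to 49 counts per rat for the weakest intact model, and under 10 for undetected pseudogenes, depth limits the lowest levels.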

Other observations

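None of 30 values (CPM of each detected model of the cluster, its sums and its share of intact V1R counts) had a rat apart from the other 6 by Dixon's test at its 95% critical value of 0.568. The widest gap was that of ENSRNOG00000031734, at 0.520 of the range. The last intact V1R model before the cluster, ENSRNOG00000034260 (68176590 to 68177507), lies 2893 kb away and had 1.99 ± 0.462 RPKM (SD, n = 7), below 17 of the 22 intact models of the cluster.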
